A study of Mus musculus with 25 samples.

Results

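The comparison covers the middle of gestation in the mouse liver. It sets the pools of stages E15.5 and E16.5 (days of embryonic age, the late window) against those of E13.5 and E14.5 (the early window), across all genes. Its 8 arrays, of 25 in the series, were chosen by the stage in their labels: 4 early and 4 late, with 2 technical repeat arrays of 1 pool at each stage. All animals were C57/B6 mice without a genotype change or treatment, and noon of the day after the plug counted as day 0.5. Livers were dissected under a microscope and pooled before RNA extraction, with 9 livers for E13.5, 6 for E14.5, 6 for E15.5 and 3 for E16.5. Each stage is therefore 1 pool, no single animal was measured, and the labels do not say how many litters a pool came from. The unit of comparison is the pool, 2 against 2. The series as a whole follows 14 such pools from E11.5 to adult liver.

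In these days the fetal liver is both a blood-forming organ and a developing gland. Blood cell precursors, mostly of the red lineage, fill the space between hepatoblasts, the bipotent cells that become hepatocytes and bile duct cells. Hepatocyte maturation is known to proceed in waves: secretion of plasma proteins and the first metabolic enzymes appear well before birth, and enzymes of glucose release and many cytochromes P450 appear around birth or after it. Red cell production meanwhile passes from primitive cells of the yolk sac, which carry embryonic globins, to definitive cells made in the liver, and granulocytes and macrophages are formed beside them.

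The values are log2 intensities of 18194 genes, each read by its brightest probe set on average among those that carry 1 symbol. The 8 arrays had median log2 intensities of 5.44 to 5.5. Repeat arrays of 1 pool correlated across genes at r = 0.994 to 0.996, with a within-pool standard deviation of single arrays of 0.113 to 0.153. Markers of the tissue were present in all 8 arrays, among them Alb at 13.01 to 14.02 and Afp at 12.82 to 13.23. Along the first principal component of all 14 pools, which held 63.2% of the variance, E14.5 (-66.8) lay on the far side of E13.5 (-58.5) from E15.5 (-39.8) and E16.5 (-24.8), so the early pools are not in the order of their age.

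The pools also differed in genes that mark the sex of the embryos. The Y-linked Eif2s3y read 7.12 and 6.81 at E13.5 and 8.14 and 7.70 at E16.5, but 4.28 and 4.10 at E14.5 and 4.11 and 4.17 on E15.5 arrays. Xist, the RNA of the inactive X chromosome, was highest where Eif2s3y was low: 10.45 and 10.07 at E14.5 and 11.23 and 11.02 on E15.5 arrays, against 8.84 and 8.67 at E13.5 and 7.69 and 7.94 at E16.5. Each window thus held 1 pool with a Y-linked signal and 1 with almost none, and neither gene was called between windows (Xist -0.04, Eif2s3y 0.45). These genes were chosen after their values were seen. The part of sex in the differences was not tested.

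Many genes of hepatocyte products and granulocyte proteins rose between the windows, and embryonic globins, Hmga2, Mdk and Cdh11 were among the genes that fell. With limma on the 4 pool means, 239 genes (1.31% of 18194) were called higher and 98 genes (0.539%) lower, at a Benjamini-Hochberg adjusted p under 0.05 and a difference of 1 log2 unit or more, where 1 unit is a doubling. The rises were larger: 73 of the 239 reached 2 log2 units and 23 reached 3, against 7 and 2 of the 98 falls. The median difference over all genes was 0.01 log2 units. All 4 late arrays lay above all 4 early arrays in 1740 genes (9.56%) and below them in 2690 genes (14.8%); every called gene was among these.

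The calls depend on which pools enter the fit. Leaving out a pool leaves 1 sample on its side, which is assumed to vary like the 2 pools of the other side. Without E13.5 or without E14.5, where the spread comes from E15.5 and E16.5 alone, the limma test called 0 genes, with smallest adjusted p-values of 0.106 and 0.220. The 337 called genes were chosen on these same pools, so their differences in these fits add no separate support. In those fits 232 and 226 of the 239 higher genes still differed by at least 1 log2 unit, and 98 and 66 of the 98 lower genes. Without E15.5 there were 363 higher and 369 lower genes. Setting the array medians equal gave 179 higher and 39 lower genes, so that 82.1% of the calls were rises against 70.9% as deposited, and setting the mean of the housekeeping genes equal gave 406 and 81 (83.4%). With all 8 arrays, the stage pool as a random block and the replicate number as a block, 278 genes were higher and 186 lower. An exact permutation of 2 pools against 2 cannot give a two-sided p below 0.333, so single genes have no test outside the fit.

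**Figure D1:**
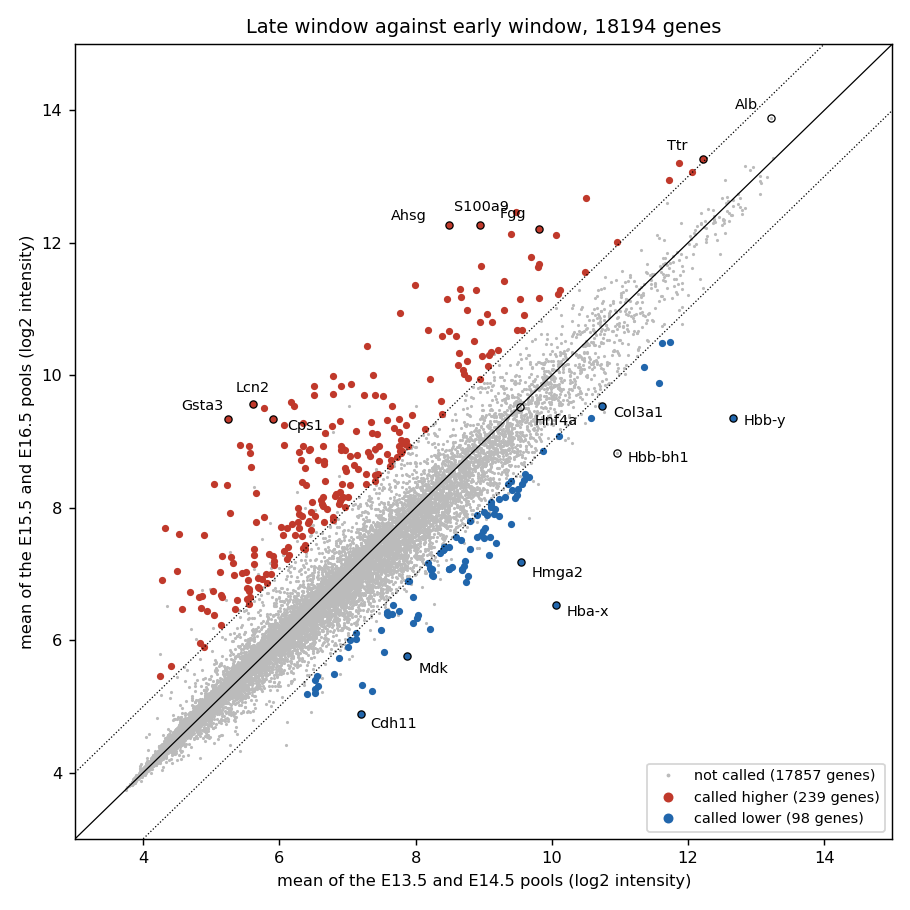
Mean of the E15.5 and E16.5 pools against the mean of the E13.5 and E14.5 pools, in log2 intensity, 1 point per gene. Red points are the 239 genes called higher, blue points the 98 called lower and grey points the rest; the solid line marks equal levels and the dotted lines a difference of 1 log2 unit. Gsta3, Lcn2 and Ahsg stand far above the line and Hba-x and Hbb-y far below it, while Hnf4a lies on it.

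Proteins that hepatocytes secrete into plasma were the broadest group to rise. Of 34 measured genes of secreted plasma proteins 20 were called higher and 0 lower, with a median difference of 1.07 log2 units. Ahsg, which encodes fetuin-A, a carrier of calcium phosphate in fetal serum, read 8.74 and 8.56 at E13.5, 8.46 and 8.19 at E14.5, 12.03 and 11.90 on E15.5 arrays, and 12.68 and 12.44 at E16.5. The arrays of the windows did not overlap, and the fitted rise was 3.77 ± 0.23 log2 units (SE, 2 pools a side; limma adjusted p = 0.0204), or 13.7-fold. Apoh (2.73 ± 0.23, and 1.58 over the mean of its probe sets), a phospholipid-binding plasma protein, Itih3 (2.65 ± 0.18), which binds hyaluronan, and the apolipoprotein Apoc4 (2.62 ± 0.30) followed.

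Albumin and alpha-fetoprotein, the classic products of fetal liver, were not called. Alb read 13.32 and 13.01 at E13.5, 13.38 and 13.12 at E14.5, 14.02 and 13.80 on E15.5 arrays and 14.00 and 13.70 at E16.5. Its arrays did not overlap and its adjusted p was 0.0292, but the difference of 0.67 ± 0.07 stayed under 1 log2 unit. Afp differed by 0.19 ± 0.07 (adjusted p = 0.21), with arrays of the windows that overlapped (12.82 to 13.09 early, 13.06 to 13.23 late). Ttr, the carrier of thyroxine and retinol-binding protein, rose from 12.06 to 12.40 on the early arrays to 13.20 to 13.40 on the late ones, by 1.04 ± 0.09 (adjusted p = 0.0227; 2.09 without _x_at and _s_at probe sets).

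Clotting factors had the highest share of rises of all 40 lists, with 17 of 23 measured genes called higher, 0 lower and a median of 1.62 log2 units. F11, the zymogen of factor XI, rose by 3.12 ± 0.25, from 4.89 to 5.62 on the early arrays to 7.93 to 8.74 on the late ones. F13b, the carrier subunit of factor XIII, rose by 2.88 ± 0.34 and Kng1, which encodes kininogen, by 2.51 ± 0.22. The 3 chains of fibrinogen rose together: Fgg by 2.39 ± 0.15, Fgb by 2.24 and Fga by 2.06. Fgg read 10.26 and 9.63 at E13.5, 9.99 and 9.38 at E14.5, 12.14 and 11.95 on E15.5 arrays, and 12.47 and 12.25 at E16.5, so the lowest late array lay above the highest early one. Prothrombin (F2), factor X (F10), plasminogen (Plg) and antithrombin (Serpinc1) were also called, at 1.62 to 2.09, whereas F7 (0.46) and F3 (0.09), which start the extrinsic pathway, were not. The other probe sets of F10 were at 0.57 and 0.63. With the mean of all probe sets of a gene 15 of the 23 were called higher. Pros1, protein S, had a difference of -0.42, with an adjusted p under 0.05 but under the threshold of size.

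Of 31 measured complement and acute phase genes, 14 were called higher and 0 lower, with a median of 0.82 log2 units. Hp, haptoglobin, which binds free haemoglobin, rose 11.4-fold (3.52 ± 0.38), from 5.23 to 5.73 early to 8.27 to 9.70 late. Apcs, serum amyloid P (3.32 ± 0.32), Itih4 (3.20 ± 0.26) and Crp (2.46 ± 0.21) rose as well, as did the complement components C8b, C8g, C9, Hc and Cfb. The acute phase genes Saa1 (0.03), Saa2 (0.15), Orm1 (0.00) and Orm2 (0.07) and the mannose-binding lectin Mbl2 (0.18) were close to 0 and not called, and the complement genes C2 (0.76) and Masp1 (0.69) were not called either.

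The urea cycle, which turns ammonia into urea, changed unevenly. Cps1, its mitochondrial first enzyme, read 5.81 and 5.99 at E13.5, 5.80 and 6.02 at E14.5, 9.00 and 8.69 on E15.5 arrays, and 9.97 and 9.71 at E16.5. That was a rise of 3.44 ± 0.34 log2 units (adjusted p = 0.0272), with all late arrays above all early ones. Arg1, which releases urea from arginine, rose by 3.38 ± 0.38, from 5.34 to 5.69 to 8.36 to 9.68. Otc, the mitochondrial step after Cps1, rose by 1.25 ± 0.15 (0.84 over the mean of its probe sets, not called), which made 3 of 8 measured genes called higher and 0 lower (median 0.71). The cytosolic enzymes between them differed less: Asl by 0.64 and Ass1 by 0.10. The ornithine carrier Slc25a15 had a difference of -0.31 ± 0.10 (adjusted p = 0.149).

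In the breakdown of amino acids, 6 of 36 measured genes were called higher and 0 lower (median 0.53). The largest rises belonged to tyrosine breakdown: Hpd, 4-hydroxyphenylpyruvate dioxygenase (3.18 ± 0.10), and Fah, fumarylacetoacetase (2.56 ± 0.25), with Gstz1 between them at 1.11 and Hgd (0.98) just under the threshold of size. Tat, the transaminase that opens this pathway, differed by only 0.18 ± 0.08 (adjusted p = 0.276), on arrays of 6.22 to 6.55 early and 6.40 to 6.63 late. Haao (1.60 ± 0.17), of tryptophan breakdown, and Pipox (1.23 ± 0.13) and Agxt2 (1.11) made up the rest, while Tdo2, which opens tryptophan breakdown, differed by 0.01. Uox, urate oxidase of peroxisomes, was in no list and was among the 12 largest rises, at 3.43 ± 0.32.

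Methyl group metabolism held several rises. Mat1a, which makes S-adenosylmethionine in mature hepatocytes, rose by 3.33 ± 0.32, from 4.93 to 5.23 early to 7.64 to 8.99 late. Gnmt (2.30 ± 0.32), which consumes that product, Bhmt (2.20 ± 0.11) and Bhmt2 (1.51 ± 0.10, or 0.99 without _x_at and _s_at probe sets), which remethylate homocysteine, and Cth and Cbs of transsulfuration (1.48 and 1.37) rose with it. These 6 of 17 measured genes were called higher and 0 were called lower (median 0.18). The other probe set of Cbs was at 0.48, and with the mean of all probe sets of a gene 5 of the 17 were called higher. Phgdh, the first enzyme of serine synthesis, differed by -0.83 ± 0.14 (adjusted p = 0.0494) and the mitochondrial folate enzyme Mthfd2 by -0.90, both short of 1 log2 unit.

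Of 17 measured genes of glucose and glycogen metabolism 4 were called higher and 0 lower (median 0.86). Pygl, liver glycogen phosphorylase (1.74 ± 0.19), Ugp2, which makes UDP-glucose (1.24 ± 0.18), Slc37a4, the glucose-6-phosphate transporter (1.22 ± 0.17), and Slc2a2, the hepatocyte glucose transporter (1.04 ± 0.08), were the 4; with the mean of all its probe sets Ugp2 was at 0.98 and not called. Fbp1, of gluconeogenesis, had a larger mean difference (2.69) without a call: its pools stood at 7.26 and 7.19 on the E15.5 arrays and 9.48 and 9.32 on those of E16.5. Pcx, which makes oxaloacetate for glucose synthesis, differed by 0.86 ± 0.07 (adjusted p = 0.0227), short of 1 log2 unit. Pck1 (-0.05 ± 0.06) and G6pc (-0.15 ± 0.09), which open and close the pathway of glucose synthesis, had overlapping arrays, of 4.88 to 5.03 and 5.18 to 5.81. Of the 14 widely expressed glycolytic genes 0 were called (median -0.34). The shares of all genes (1.31% higher, 0.539% lower) leave few calls for a list of this size. Among the 14, 11 had a difference below 0, against 47.8% of all genes. In 6 of them all late arrays lay below all early ones, against 14.8% of all genes. The glucose transporter Slc2a3 and Pkm, the pyruvate kinase of proliferating cells, had differences of -1.09 and -1.02.

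Fatty acid handling rose in part. Of 28 genes of fatty acid oxidation and ketone synthesis 6 were called higher and 0 lower (median 0.35), led by the fatty acid binding protein Fabp1 (1.67 ± 0.12), the acyl-CoA synthetase Slc27a5 (1.66 ± 0.13) and the peroxisomal enzymes Acaa1b (1.63 ± 0.14) and Ehhadh (1.55 ± 0.20). Cpt1a, which admits fatty acids to mitochondria, differed by 0.03. In fat synthesis and storage Dgat2 (1.09 ± 0.08) was the 1 called of 24 measured, and in cholesterol synthesis Tm7sf2 (1.40 ± 0.15) was the 1 of 20. Over all genes 1.31% were called higher and 0.539% lower. Of 23 genes of bile acid synthesis and transport 2 were called, the peroxisomal oxidase Acox2 (1.99 ± 0.18) and Abcb11, the bile salt export pump (1.08 ± 0.09); Cyp7a1, the rate-limiting enzyme, differed by 0.05.

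Among the enzymes that handle foreign compounds Gsta3, a glutathione transferase, read 5.42 and 5.30 at E13.5, 5.11 and 5.14 at E14.5, 8.95 and 8.80 on E15.5 arrays, and 9.95 and 9.65 at E16.5. The rise of 4.09 ± 0.32 log2 units (17.0-fold, adjusted p = 0.0227) came without overlap of any arrays and was the largest of all genes by the brightest probe set. Its other probe set differed by 1.35 ± 0.28, and the mean of both by 2.72. Of the 56 members measured in the cytochrome P450 and drug metabolism list 14 were called higher and 0 lower (median 0.52). Cyp2d26 rose by 3.72 ± 0.31, the glucuronosyltransferase Ugt2b5 by 3.07 ± 0.39 and Cyp3a11 by 3.26 ± 0.11. Cyp3a11 went from 5.15 to 5.91 on the early arrays to 8.61 to 9.04 on the late ones, with E15.5 (9.04 and 8.61) and E16.5 (9.00 and 8.67) level. Cyp3a16, a fetal and neonatal form of that family, rose by 2.62 ± 0.29, and near-identical sequences may share probes among such families. Cyp2e1 (0.28) and Cyp1a2 (0.04), abundant cytochromes of adult liver, were not called.

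**Figure D2:**
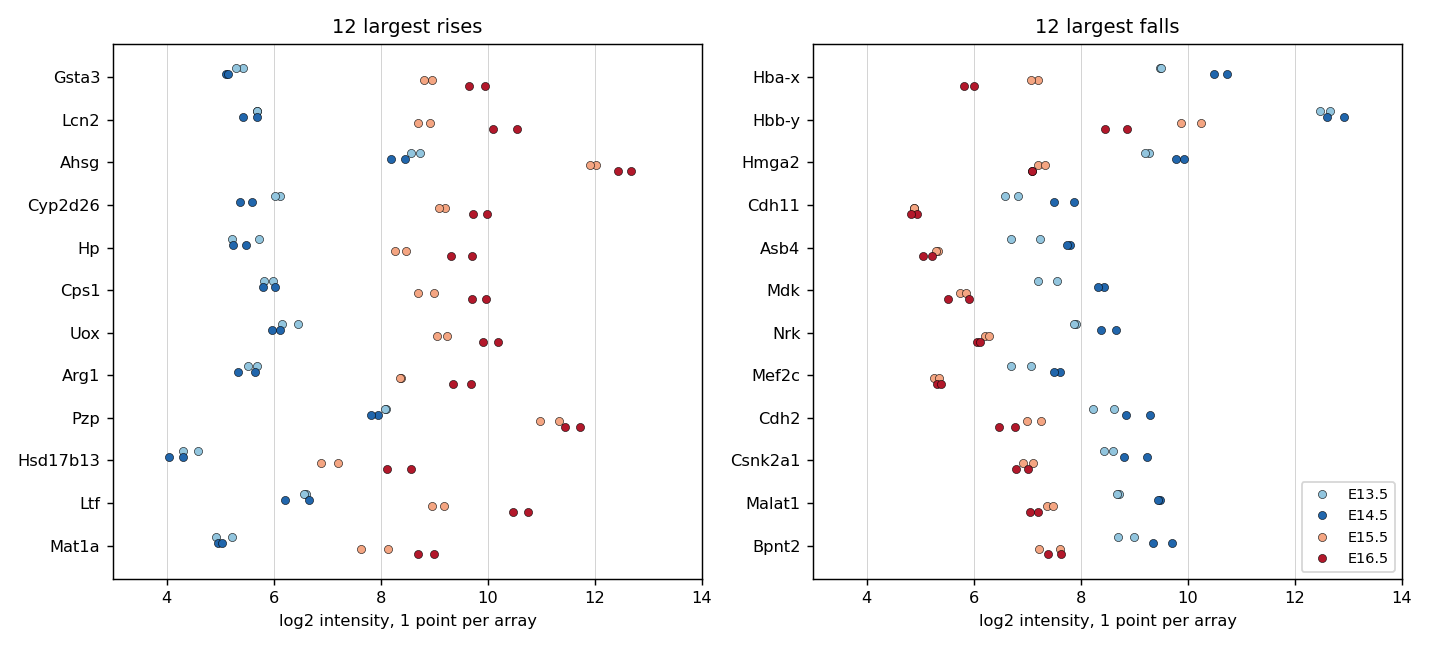
Log2 intensity on each of the 8 arrays for the 12 largest called rises (left) and the 12 largest called falls (right) without overlap of the windows, 1 point per array and 1 colour per stage. In every rise the E16.5 arrays lie above those of E15.5, and in every fall the highest array is one of E14.5.

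The promoters of the called genes were set beside these rises, as a description. RefSeq promoters of assembly GRCm38.p6, 300 bases from 250 before to 50 after the start, were matched by symbol for 178 of the 239 higher genes, 76 of the 98 lower genes and 14453 of all 18194. For each gene with several starts the first listed was used. The HNF1 motif GTTAATNAT, on either strand, was in 10 higher genes (5.62%), 0 lower genes and 89 of all genes (0.62%). The HNF4 motif CAAAGTCCA was in 7 (3.93%), 0 and 67 (0.46%), and the C/EBP motif TTNNGCAAT in 12 (6.74%), 0 and 237 (1.64%). The FOXA motif TGTTTAC was in 4.49% of higher, 3.95% of lower and 2.82% of all promoters, the GATA motif AGATAA in 10.67%, 0.0% and 8.13%, and the E2F motif TTTNGCGC in 0.56%, 2.63% and 2.03%. CCAAT stood in 38.2% of the higher and 38.2% of all promoters, and in 42.11% of the lower ones. TATAAA stood in 15.73%, 11.84% and 9.87%. Matches of different motifs could share bases, and a match is not evidence of binding.

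Shown are 5 of the 29 higher promoters with an HNF1, HNF4 or C/EBP match, because each belongs to a gene described here and 3 kinds of match are among them. The 250 bases before the start are printed 5′ to 3′ on the gene's strand, with the match in capitals. Ahsg and Ltf carry a C/EBP match that begins 32 and 75 bases before the start, Fga an HNF1 match 46 bases before it, and Cyp3a11 and Cyp3a16 an HNF4 match 109 and 99 bases before it.
Ahsg (chr16:22891765-22892014, plus strand): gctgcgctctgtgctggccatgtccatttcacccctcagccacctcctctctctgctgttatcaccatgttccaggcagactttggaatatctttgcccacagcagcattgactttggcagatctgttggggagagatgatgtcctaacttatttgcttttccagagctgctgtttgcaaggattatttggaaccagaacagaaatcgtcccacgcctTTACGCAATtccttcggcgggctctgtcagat
Fga (chr3:83025903-83026152, plus strand): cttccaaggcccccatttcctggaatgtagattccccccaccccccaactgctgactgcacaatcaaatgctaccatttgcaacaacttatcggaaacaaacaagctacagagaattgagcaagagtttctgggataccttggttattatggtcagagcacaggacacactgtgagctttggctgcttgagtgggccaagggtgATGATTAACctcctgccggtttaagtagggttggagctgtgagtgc
Cyp3a11 (chr5:145879855-145880104, minus strand): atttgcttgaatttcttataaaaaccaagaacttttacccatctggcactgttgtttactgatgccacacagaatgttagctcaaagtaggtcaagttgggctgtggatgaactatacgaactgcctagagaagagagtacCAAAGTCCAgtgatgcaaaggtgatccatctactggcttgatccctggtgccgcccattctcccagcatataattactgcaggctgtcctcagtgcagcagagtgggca
Cyp3a16 (chr5:145469724-145469973, minus strand): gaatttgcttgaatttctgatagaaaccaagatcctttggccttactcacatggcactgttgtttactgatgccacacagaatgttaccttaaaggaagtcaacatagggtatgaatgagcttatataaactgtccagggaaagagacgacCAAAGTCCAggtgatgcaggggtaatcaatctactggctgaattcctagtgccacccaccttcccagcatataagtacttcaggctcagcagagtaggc
Ltf (chr9:111019042-111019291, plus strand): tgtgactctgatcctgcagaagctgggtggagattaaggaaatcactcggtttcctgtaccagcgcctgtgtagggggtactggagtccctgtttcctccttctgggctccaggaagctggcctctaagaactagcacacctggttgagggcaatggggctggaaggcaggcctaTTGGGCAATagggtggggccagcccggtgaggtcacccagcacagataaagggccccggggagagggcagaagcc

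Of 33 measured liver transcription factors, among them those that bind such motifs, 0 were called in either direction (median -0.02). This is near the shares over all genes (1.31% higher, 0.539% lower), and the count was 0 higher and 0 to 1 lower over all alternatives. Hnf4a read 9.52 and 9.38 at E13.5, 9.72 and 9.51 at E14.5, 9.61 and 9.49 on E15.5 arrays, and 9.65 and 9.35 at E16.5, a difference of -0.01 ± 0.08 (limma adjusted p = 0.968) with overlapping arrays. Its other probe sets differed by 0.36 ± 0.08, 0.25 ± 0.10 and 0.23 ± 0.07. Cebpa differed by 0.07 ± 0.08, Prox1, a regulator of hepatoblast growth, by -0.28 ± 0.07, and the bile acid receptor Nr1h4 by 0.47 ± 0.15 (adjusted p = 0.152). The lowest difference in the list was that of Gata6, at -1.14 (other probe sets at -0.27 and 0.00), and the highest that of Foxa3, at 0.65. The level of an mRNA says nothing of the amount or activity of its protein, which was not measured.

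Lists of signals and carriers around the hepatocyte held few calls, beside shares over all genes of 1.31% higher and 0.539% lower. Among 20 genes of glucocorticoid transport, activation and response, Errfi1 (1.43 ± 0.15) was the 1 called, which is few for a list of this size. Hsd11b1, which regenerates active glucocorticoid, differed by 1.98 ± 0.46 (adjusted p = 0.0809) and stood at 7.67 and 7.47 at E15.5 and 9.02 and 8.79 at E16.5. Serpina6, the carrier of corticosteroids in plasma (0.39 ± 0.10), and the receptor Nr3c1 (0.05 ± 0.09) were not called. In the growth factor axis Igfbp1, a hepatocyte protein that binds insulin-like growth factors, rose by 2.39 ± 0.21 while Igfbp3, made by non-parenchymal cells, fell by 1.31 on the log2 scale (SE 0.12); the other members of that list were not called. In iron handling Cp, ceruloplasmin (3.03 ± 0.37, or 1.74 over the mean of its probe sets), Hfe (1.20 ± 0.18, or 0.74 and not called) and Tmprss6 (1.06 ± 0.06) rose, 3 of 16. Hamp, hepcidin, was not called (1.32 ± 0.42), with 5.64 to 5.76 on the early arrays, 6.30 and 6.43 at E15.5, and 7.77 and 7.51 at E16.5.

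**Figure D3:**
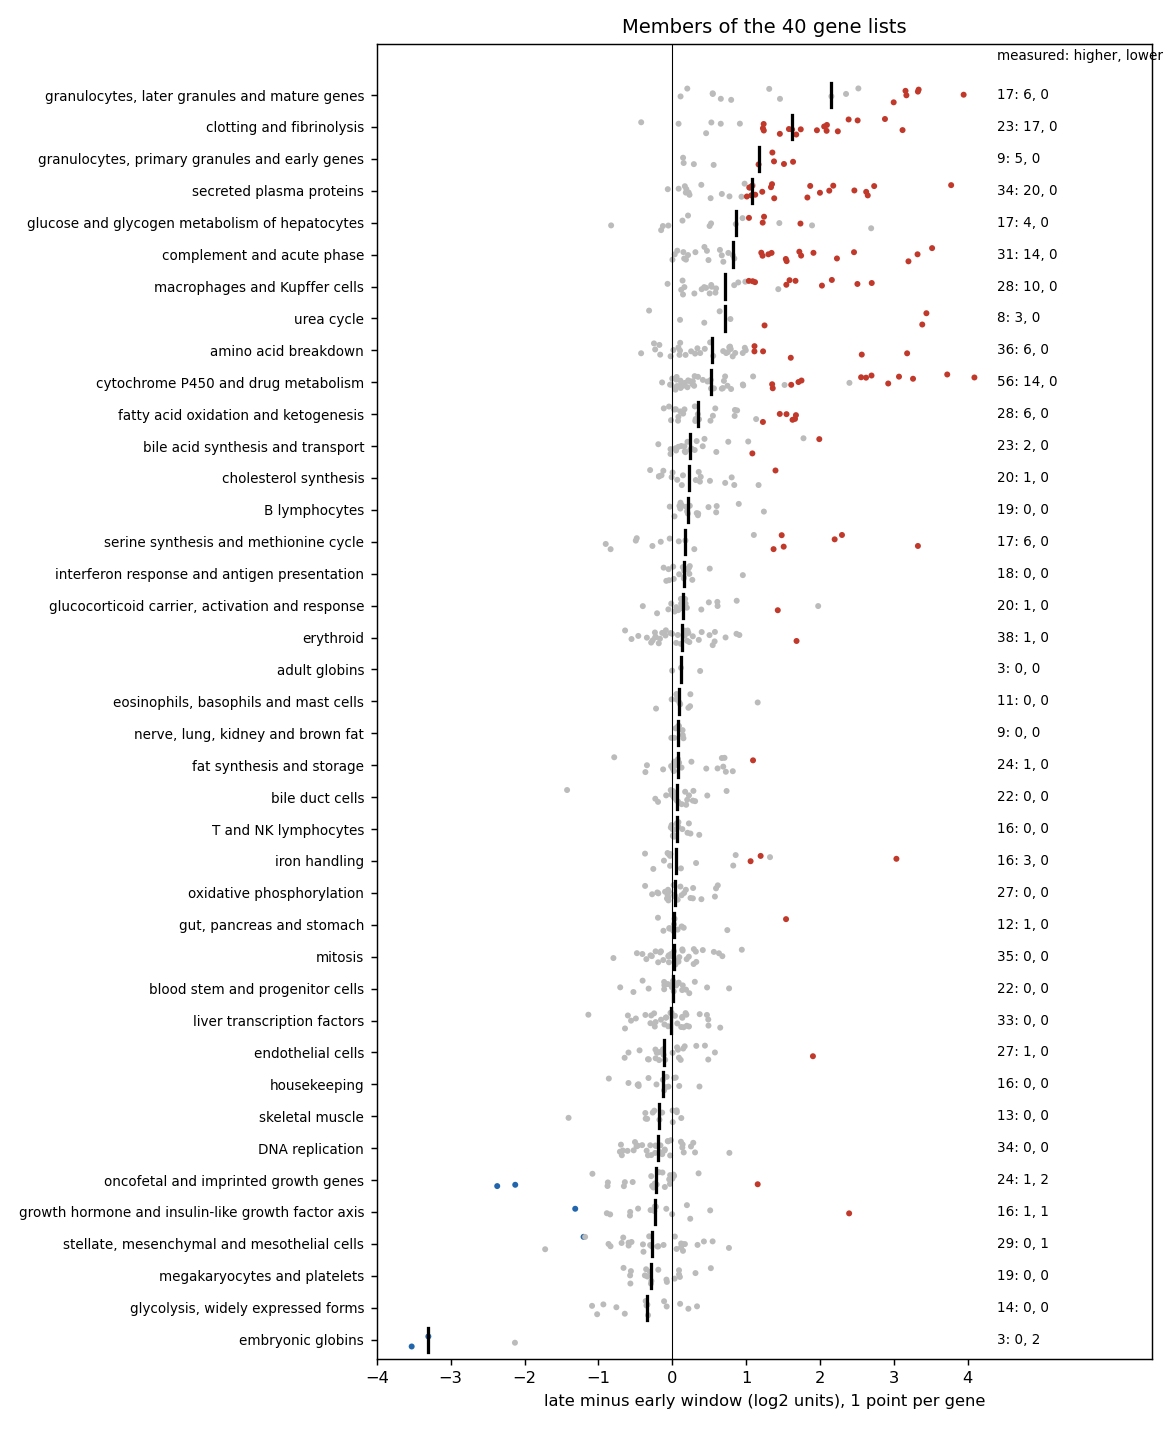
Difference of the late from the early window in log2 units for the measured members of the 40 gene lists, 1 point per gene, red where called higher, blue where called lower and grey otherwise; black bars are list medians. Numbers at the right give the measured members, then those called higher and lower: clotting (17 of 23) and secreted plasma proteins (20 of 34) hold the most red points, and liver transcription factors hold none.

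Granulocyte genes rose in both of their classes. Of 17 measured genes of later granules and mature cells 6 were called higher and 0 lower, with a median of 2.15 log2 units. Lcn2, which binds bacterial siderophores, read 5.68 and 5.69 at E13.5, 5.68 and 5.42 at E14.5, 8.92 and 8.70 on E15.5 arrays, and 10.54 and 10.09 at E16.5, a rise of 3.94 ± 0.50 (15.4-fold, adjusted p = 0.0352). Lactoferrin (Ltf, 3.33 ± 0.52), the calgranulin S100a9 (3.33 ± 0.33), Ngp (3.17 ± 0.44), Camp (3.16) and S100a8 (3.00) rose beside it. Anxa1 (2.52 ± 0.47) and Olfm4 (2.35 ± 0.42) were not called. Anxa1 stood at 8.97 and 8.71 at E15.5 and at 10.45 and 10.04 at E16.5. Of 9 genes of the early granules 5 were called higher and 0 lower (median 1.17), led by neutrophil elastase, Elane (1.64 ± 0.14), Fcnb (1.51 ± 0.16) and cathepsin G, Ctsg (1.38 ± 0.18). Mpo, myeloperoxidase, differed by 0.56 ± 0.14 (adjusted p = 0.0897), at 9.41 to 9.67 early and 9.84 to 10.37 late. In bulk tissue, more cells of a type and more RNA per cell cannot be told apart.

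Macrophage genes rose next, with 10 of 28 measured called higher and 0 lower (median 0.72). The lysozymes Lyz1 (2.70 ± 0.33) and Lyz2 (2.51 ± 0.34), which granulocytes also express, led. The 1 probe set of Lyz1 without the suffix _x_at or _s_at, which mark sets that may hybridise to related genes, differed by 0.12 ± 0.08 (adjusted p = 0.456), so the rise of Lyz1 cannot be told apart from that of Lyz2. Cd5l, a secreted protein of tissue macrophages, rose by 2.16 ± 0.29, from 7.20 to 7.91 early to 9.28 to 10.08 late, and the complement subunits C1qb (2.03 ± 0.23), C1qa (1.59) and C1qc (1.54) rose together. Marco, Cd68 and Hmox1 were called at 1.04 to 1.12. Some other surface markers of macrophages differed less than Marco and were not called: Adgre1 by 0.59, Csf1r by 0.53 ± 0.09 (limma adjusted p = 0.0527), Timd4 by 0.58 and Clec4f by 0.53.

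Embryonic globins fell, and of the red cell genes 1 was called by the brightest probe sets. Hba-x, the zeta-like globin, read 9.49 and 9.51 at E13.5, 10.73 and 10.48 at E14.5, 7.20 and 7.07 on E15.5 arrays, and 6.01 and 5.82 at E16.5, a difference of -3.53 ± 0.55 (11.5-fold lower, adjusted p = 0.044). Hbb-y, the epsilon-like globin, differed by -3.30 ± 0.47, from 12.47 to 12.92 early to 8.46 to 10.25 late. The third, Hbb-bh1, had a difference of -2.13 ± 0.42 without overlap of arrays and an adjusted p of 0.0618, so 2 of 3 were called lower. The pool means of all 3 were higher at E14.5 than at E13.5. Of the 6 adult globins listed only 3 were measured, with 0 calls and Hbb-b2 at 0.38 ± 0.13 (limma adjusted p = 0.177). The mean level of these 3 was 6.82 to 7.05 over the 4 pools, against 9.89 to 10.31 for the erythroid list. The course of adult globin RNA as a whole cannot be read from them. Of 38 erythroid genes Aqp1, the water channel of red cells and of several epithelia and vessels, was the 1 called (1.68 ± 0.10), and 0 were lower (median 0.14). The shares of all genes (1.31% higher, 0.539% lower) leave few calls for a list of this size. With the mean of all probe sets of a gene 2 were called higher and 0 lower (median 0.16). Probe sets of some members disagreed in both directions. Tfrc was at 0.08 by its brightest set and at 1.11 to 1.99 by the others. Slc4a1 was at -0.09, with others at 2.40 and 0.09, and Bcl11a at -0.46, with the lowest other set at -1.23. Gata1, the main regulator of the red lineage, differed by -0.55 ± 0.23 (adjusted p = 0.229), and the iron importer of mitochondria, Slc25a37, by -0.23 ± 0.20.

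The lists of the other blood lineages held 0 calls, where the shares of all genes (1.31% higher, 0.539% lower) leave few calls for lists of this size. They are 19 genes of B lymphocytes, 16 of T and NK lymphocytes, 22 of stem and progenitor cells, 19 of megakaryocytes and 11 of eosinophils, basophils and mast cells. At an adjusted p under 0.05 without the threshold of size, limma called 1 of them, Cd34 of early blood cells (-0.70, adjusted p = 0.0345). Vpreb1, part of the surrogate light chain of early B cells, had the largest difference in the lymphocyte lists, 1.24, and Prg2, an eosinophil granule protein, stood at 7.29 and 7.22 at E16.5 against 4.95 to 5.20 on the other arrays. Kit, the stem cell factor receptor (-0.53), and Pf4 of platelets (-0.35 ± 0.10) were not called.

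The largest falls after the globins belonged to Hmga2, Cdh11, Asb4 and Mdk. Hmga2, a chromatin protein of undifferentiated cells, read 9.28 and 9.21 at E13.5, 9.92 and 9.78 at E14.5, 7.19 and 7.34 on E15.5 arrays, and 7.09 and 7.09 at E16.5, and fell by 2.37 on the log2 scale (SE 0.22, adjusted p = 0.0255). Mdk, the growth factor midkine, differed by -2.13 ± 0.33. Both belong to the 24 oncofetal and imprinted genes, of which 2 were called lower and 1, the amino acid transporter Slc38a4 (1.16 ± 0.19), higher, with a median of -0.22. Over all genes 0.539% were called lower and 1.31% higher. With the mean of all probe sets of a gene 3 of the list were lower and 1 higher (median -0.34). Over all alternatives 0 to 5 were lower and 0 to 1 higher. Dlk1, a membrane protein of hepatoblasts, differed by -0.88 ± 0.23 (adjusted p = 0.1) and Igf2, the main fetal growth factor, by 0.02 ± 0.11. Lin28b was dim in both windows, at 3.93 to 4.08.

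Outside the lists, Cdh11, a cadherin of mesenchymal cells, differed by -2.31 ± 0.33, from 6.58 to 7.88 early to 4.84 to 4.95 late. Cdh2, N-cadherin (-1.87 ± 0.27), the transcription factor Mef2c (-1.89 ± 0.23), the ankyrin repeat protein Asb4 (-2.14 ± 0.28), the kinase Nrk (-2.04 ± 0.22), the casein kinase subunit Csnk2a1 (-1.80 ± 0.18), the nuclear RNA Malat1 (-1.80 ± 0.28) and the Golgi phosphatase Bpnt2 (-1.72 ± 0.24) completed the 12 largest falls. Several of these rest on 1 probe set. With the mean of all sets of a gene Malat1 was at -0.19, Csnk2a1 at -0.52, Bpnt2 at -0.73, Mef2c at -0.75, Nrk at -1.31 and Asb4 at -1.85, none of them called, and Cdh11 at -1.26, still called. For Malat1 other sets went upward, at 0.57 ± 0.12 and 0.51 ± 0.18. Of the 29 stellate, mesenchymal and mesothelial genes 1 was called lower, Col3a1, a fibrillar collagen (-1.20 ± 0.17), and 0 higher, with a median of -0.28. The shares over all genes were 0.539% lower and 1.31% higher. In this list 2 genes were lower after quantile normalization and 0 with array medians set equal. Col3a1 was not called with array medians or the housekeeping mean set equal. Col1a1 had a larger difference (-1.72) without a call. The mean level of that list was 7.14 at E13.5, 7.36 at E14.5, 6.94 at E15.5 and 7.00 at E16.5.

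In the called genes E14.5 mostly lay farther from the late pools than E13.5 did. It stood above E13.5 in 98 of the 98 lower genes (66.5% of all genes with a lower late mean) and below it in 178 of the 239 higher genes (74.5%, against 65.9% of all genes with a higher late mean). Among 13 skeletal muscle markers, a tissue the liver should lack, Actc1 read 7.83 and 7.57 at E14.5 against 6.08 and 6.10 at E13.5 and 5.42 to 5.57 later. The mean of all 13 was 5.41 at E13.5, 5.75 at E14.5, 5.32 at E15.5 and 5.37 at E16.5, and 0 were called between the windows. The mean of 9 markers of nerve, lung, kidney and brown fat ranged from 5.13 to 5.26 over these pools and had its lowest value at E14.5. The mean of the 16 housekeeping genes was also highest at E14.5, at 10.74 against 10.53 at E13.5, 10.48 at E15.5 and 10.38 at E16.5. With that mean set equal on all arrays, 52 of the 98 lower genes were still called and all 98 kept their sign. The parts of other tissue and of array scaling in the falls were not tested. Without E14.5, 66 of the 98 genes still differed by at least 1 log2 unit.

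Of 34 genes of DNA replication and 35 of mitosis 0 were called in either direction, near the shares over all genes of 1.31% and 0.539%, with medians of -0.20 and 0.02 and with 1 and 4 higher at an adjusted p under 0.05 alone. Mki67, a marker of dividing cells, read 11.72 to 12.29 early and 11.25 to 12.27 late (-0.19 ± 0.25). Of 22 bile duct genes 0 were called: Sox9 differed by 0.03 ± 0.07 and Krt19 by 0.13 ± 0.07, both on dim arrays of 5.16 to 5.31 and 5.51 to 5.84. The 1 call among 27 endothelial genes was Cd36 (1.90 ± 0.26, and 1.06 over the mean of its probe sets), a fatty acid and scavenger receptor found on several cell types. Oxidative phosphorylation (27 genes), interferon response and antigen presentation (18) and housekeeping (16) held 0 calls. Of 12 markers of gut, pancreas and stomach 1 was called higher, the trefoil peptide Tff3 (1.54 ± 0.21), and the list's median was 0.03.

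Most of the change fell between E14.5 and E15.5. In a limma fit of all 25 arrays with 1 mean per stage, which compares single pools on technical spread, the step from E13.5 to E14.5 had 7 higher genes (0.0385%) and 1 lower (0.0055%). The step from E14.5 to E15.5 had 233 higher (1.28%) and 213 lower (1.17%), and that from E15.5 to E16.5 had 34 higher (0.187%) and 9 lower (0.0495%). The middle step exceeded the mean of its neighbours in the upward direction in 151 genes (0.83%) and in the downward direction in 202 (1.11%), at the same thresholds. This last total of 353 was 160 without the first E14.5 array, and 166 and 170 without the first or second E15.5 array. The 8 genes of the first step were 3 without the second E13.5 or the first E14.5 array, and the 43 of the third step 19 without the second E15.5 and 18 without the first E16.5 array. Of the 239 genes called higher between the windows 127 were among the 151, and of the 98 lower genes 62 among the 202. These fits share their arrays with the windows and add no separate evidence.

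Between E15.5 and E16.5 most called genes moved further the same way, 227 of the 239 higher (95%, against 60.8% of all genes with a higher late mean) and 88 of the 98 lower (89.8%, against 66%). The median of the 239 higher genes changed by -0.11, 1.41 and 0.42 log2 units over the 3 steps and that of the 98 lower genes by 0.33, -1.25 and -0.29. Over all genes of each sign the medians were -0.042, 0.109 and 0.03, and 0.074, -0.165 and -0.055. The middle step was the largest in all 239 and all 98, against 63% and 59.3% of all genes of that sign. A call needs small steps within the windows, so this profile of the called genes follows from their choice. Genes that went on rising from E15.5 to E16.5, with a call in that step, included Ltf (1.54), Lcn2 (1.51), Ngp (1.33), Ugt2b5 (1.17) and Arg1 (1.14). Fbp1 (2.18), Hsd11b1 (1.33) and Hamp (1.27) were called in that step without a call between the windows. Mean levels in the pools outside the comparison bear on both sides. At E12.5, 236 of the 239 higher genes and 98 of the 98 lower genes lay on the early side of the midpoint, against 82.4% and 71.1% of all genes with a difference of that sign. At E17.5, 228 of the 239 (95.4%) had passed the late mean further upward (41.8% of all genes with a higher late mean), while 46 of the 98 (46.9%) had passed it further downward (49.6%). In adult liver 187 of the 239 (78.2%) and 83 of the 98 (84.7%) were on the late side, against 65.4% and 57.2% of all genes of that sign.

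**Figure D4:**
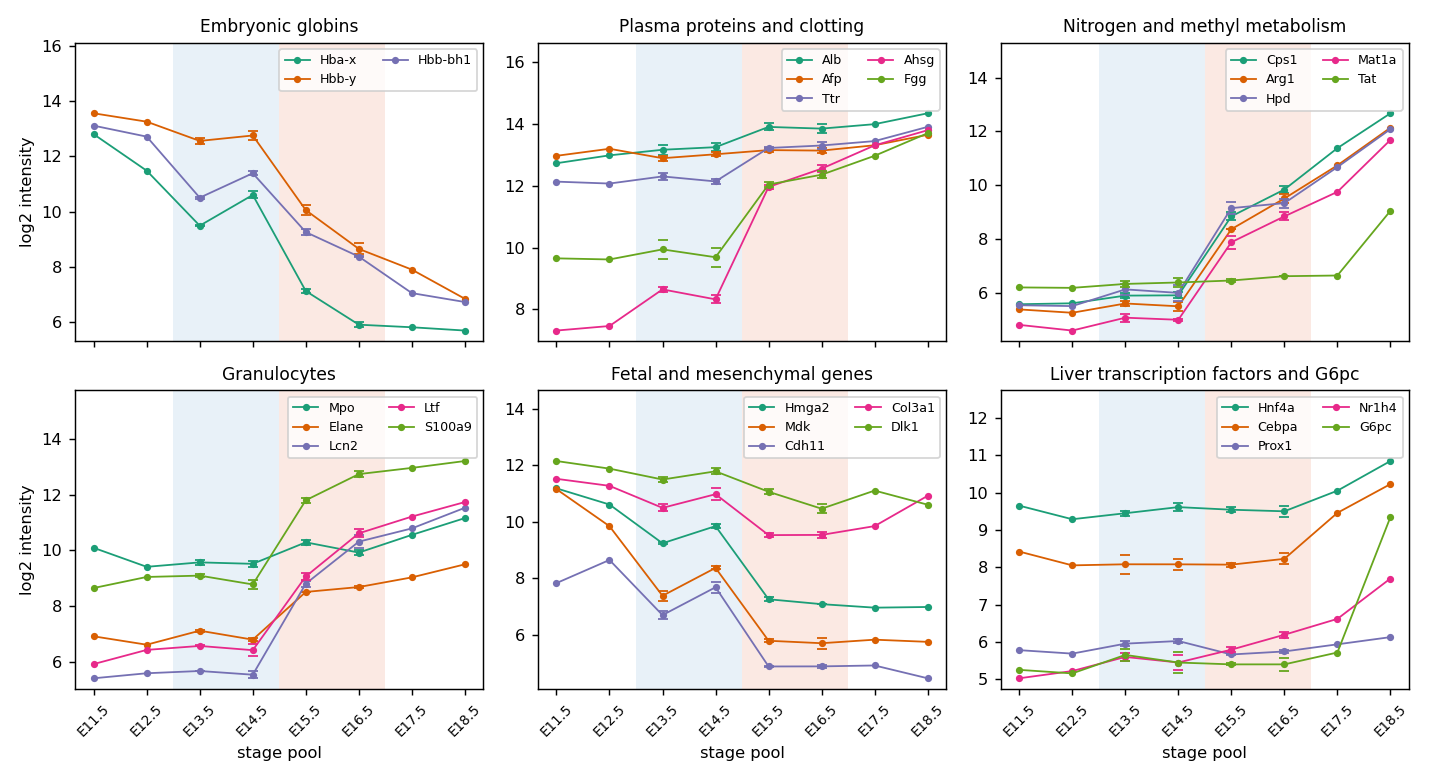
Log2 intensity in the 8 fetal pools for genes of 6 groups; lines join pool means, short bars at E13.5 to E16.5 are the single arrays, and shading marks the early (blue) and late (red) windows. Cps1, Ahsg and Lcn2 climb between E14.5 and E15.5 and go on rising, Cdh11 and Mdk drop there and then stay level, and Hnf4a, Cebpa and G6pc stay flat until after E16.5.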

How the data were processed

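Biotin-labelled total RNA of pooled livers was hybridised to Affymetrix mouse arrays, per the labels' protocols. The deposited values are linear intensities of 45101 probe sets; RMA was applied per the submitters' processing notes, with neither version nor scaling stated. Distributions differ between arrays, so other scalings were tried. Log2 was taken, and repeats were averaged per pool. Sets with several symbols (932) or none (9211) were left out, which left 18194 genes; symbols came from the platform annotation. The values carry no genome build.

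limma 3.58.1 in R 4.3.3 (lmFit, eBayes without trend) was fitted to 4 pool means, with 2 residual and 2.59 prior degrees of freedom. The steps used all 25 arrays (11 residual degrees of freedom, technical error only). Nothing says that repeat arrays came from separate livers. Deviations of arrays with the same repeat number correlated at 0.398 to 0.613 in all 6 pairs of stages, so the numbers pair the arrays (where from is not stated). The fits were checked on simulated data. Figures were drawn with matplotlib 3.10.9.

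The comparison, the 40 gene lists (867 of 953 entries measured; the others not analysed here) and the alternatives were chosen with earlier results of these data known. Named genes are the 12 largest calls a direction without overlap, up to 4 called and 2 bright uncalled members of a list and 32 preset genes; list members named beyond this were chosen after their values were seen. The number of arrays limits the precision.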

Additional observations from a re-analysis of the deposited data

Results flagged for a closer look

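The mean of the 12 gut, pancreas and stomach markers read 5.88 on the first E16.5 array and 5.84 on each of the other late arrays, a gap large against the range of the 4. This was the 1 such value among 80 combinations of a list and a window, where chance gives about 1 in 20.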

How the results depend on the processing

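Leaving out 1 pool at a time gave 0 to 363 higher genes (239 with all) and 0 to 369 lower genes (98 with all), with 0 where either early pool was missing and the spread came from E15.5 and E16.5 alone; the cause was not tested. Higher genes numbered 406 with the housekeeping mean set equal, which moved the median of all genes to 0.21, 48 when 14 pools in 7 windows shared the spread, and 540 without the threshold of size. Lower genes numbered 39 with array medians set equal, 47 with the mean of all probe sets of a gene, 171 among genes with a mean of at least 6 in a window, 171 with trend and robust eBayes, 10 with 7 windows, 186 with technical error only, 186 with the pool as a random block and 443 without the threshold of size. The replicate block, with that random block, gave 278 and 186, and the block changed no other count by over 1.5 times. With E12.5 and E17.5 added, chosen after seeing the data, there were 320 and 314. The early step ranged from 3 to 11 genes without single arrays, the middle step from 398 to 593, the late step from 18 to 42 (69 after quantile normalization) and the middle against flanking steps from 160 to 342. The 239 higher genes kept their sign under every setting that tested them; of the lower genes 94 of 96 did without _x_at and _s_at probe sets, and all in the other settings. Differences of genes near the dim end are limited by signal over background.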

Other observations

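Genes of ribosome assembly stood out among the falls after their values were seen, and no list had been set for them. The 37 measured genes whose symbols are Utp, Rrp, Nop or Nol and a number mostly act in ribosome assembly in the nucleolus. Their median difference was -0.51 log2 units, with 32 of 37 below 0 (86.5%, against 47.8% of all genes). All 4 late arrays lay below all 4 early arrays in 26 of them (70.3%, against 14.8%), and 2 were called lower and 0 higher, against 0.539% called lower over all genes. The 46 genes of ribosomal proteins (Rpl, Rps) had a median of -0.15, with 37 below 0 (80.4%), 6 without overlap (13%) and 1 called lower. The choice of these symbols followed the values, so they have no test.

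Single pools held single genes that stood apart. Prl8a2, a prolactin-family gene known from the decidua, read 8.68 and 8.46 at E15.5 and 4.78 to 5.32 on the other 6 arrays, whereas Prl3a1 and Prl7b1 stayed at 4.58 to 4.96 throughout. Tubb2b, a tubulin of nervous tissue, read 7.19 and 6.80 at E14.5 against 5.10 and 5.32 at E13.5 and 4.35 to 4.45 later. Rsad2, an interferon-induced antiviral protein, rose by 1.88 log2 units between E15.5 and E16.5, and Hsph1, a heat shock protein, fell by 1.78 in the same step. Tnnc1, the slow and cardiac troponin C, was called higher between the windows (2.44), while the skeletal muscle markers were not.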
